A study of Homo sapiens with 6 samples.

Results

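The APOBEC3 cytidine deaminases APOBEC3A, APOBEC3B, APOBEC3C, APOBEC3F and APOBEC3G and the uracil glycosylase UNG were followed through every probe set that the platform annotation assigns to them, those naming several genes included. The 6 genes, of 13119 named on the array, had 8 of its 22277 probe sets, 7 for the APOBEC3 genes and 1 for UNG. The cells were NCI-H929, a human multiple myeloma line, and RNA was taken 24 h after electroporation. The siRRM1 group (2 arrays) received small interfering RNA (siRNA) against RRM1, the large subunit of ribonucleotide reductase, and the siRRM2 group (2 arrays) siRNA against RRM2, the small subunit. The scramble group (2 arrays) received a non-targeting siRNA, so all 3 groups were electroporated cells of a single line. Nothing in the labels ties the 2 arrays of a group to different cultures, so p-values measure only the spread between these arrays, which may be technical.

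APOBEC3 enzymes convert cytosine to uracil in single-stranded DNA. They were first known as restriction factors against retroviruses, and in tumours, multiple myeloma among them, APOBEC3 activity leaves a recognisable mutation pattern. UNG cuts uracil out of DNA and so opens base excision repair, in which APEX1 cleaves the backbone, POLB or replicative polymerases fill the gap and LIG1 or LIG3 seals it. Uracil also enters DNA from dUTP when the thymidylate pathway runs short, and the dUTPase encoded by DUT keeps that pool small.

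Values are the authors' log2 signals. A probe set was tested when its mean over the 6 arrays reached a log2 signal of 5.44, the 40th percentile of all probe sets, and 13308 did. A difference was called at a Benjamini-Hochberg adjusted p under 0.05 over all of these, from limma fitted to the 6 arrays together. Of the 8 member probe sets 7 passed this filter. The probe set for APOBEC3A, with a mean of 4.79, did not, and the APOBEC3F probe set 214994_at passed at a mean of 5.59 although its scramble mean was 5.27, so its inclusion rests on the knockdown arrays.

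Array medians lay between 6.11 and 6.16. RRM1 signal (201477_s_at) was at 16.2% of the scramble mean in siRRM1 cells, and RRM2 signal was at 15.4% (209773_s_at) and 29.0% (201890_at) in siRRM2 cells. All 10 myeloma and plasma cell markers examined, SDC1, TNFRSF17 and NSD2 among them, passed the filter. Their median log2 difference was -0.28 in siRRM1, with 6 of 10 at an unadjusted p under 0.05 (30.8% of genes), and their summed linear signal was 25465 and 24104 in siRRM1, 30601 and 28038 in siRRM2, and 30269 and 29105 in scramble. In limma 1 of the 10, FGFR3, fell in siRRM1 cells, where 5.66% of genes were called lower. FGFR3 was not called when scramble replicate 1, scramble replicate 2 or siRRM1 replicate 2 was left out. Without siRRM1 replicate 1 more of these markers were called lower. In siRRM1 against scramble, 854 probe sets were called higher and 765 lower, and with each array centred on its median 745 were higher and 1085 lower. In siRRM2 against scramble 149 were higher and 27 lower, and between the knockdowns 3 were higher in siRRM1 and 2 lower. The 3′ to 5′ log2 difference of the actin control was 0.33 on siRRM1 replicate 2 and 0.34 on scramble replicate 1, against 0.03 to 0.15 on the other arrays.

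APOBEC3G, APOBEC3C and APOBEC3B rose in siRRM1 cells, as did the probe set shared by APOBEC3F and APOBEC3G, by 1.71 to 2.17 times. In siRRM2 cells APOBEC3G rose 1.52-fold, and the other APOBEC3 differences did not pass the threshold. UNG was not called in either knockdown. Of the 7 member probe sets tested, 4 rose and 0 fell in siRRM1 against scramble, where 6.42% of all probe sets were called higher and 5.75% lower. That number was 2 without scramble replicate 1 or siRRM1 replicate 2. In siRRM2 against scramble 1 rose and 0 fell, against a background of 1.12% called higher and 0.203% lower.

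APOBEC3G, which restricts retroviruses lacking the Vif protein, had the largest difference of the 8 probe sets in siRRM1 cells. Its probe set 204205_at had log2 signals of 11.37 and 11.45 in siRRM1 cells, 10.86 and 10.93 in siRRM2 cells, and 10.21 and 10.37 in scramble cells. The 3 groups did not overlap, and the spread within each group (SD 0.06 in siRRM1, 0.05 in siRRM2 and 0.12 in scramble, n = 2 each) was smaller than any gap between group means. The rise in siRRM1 was 1.12 on the log2 scale (SE 0.10, 95% interval 0.89 to 1.35, limma adjusted p = 0.00211). It was called in each fit that left out 1 array, with log2 values of 1.04 to 1.20. The rise in siRRM2 was 0.60 (SE 0.10, 95% interval 0.37 to 0.84, limma adjusted p = 0.0442). That call was lost whichever single array was left out, at log2 values of 0.52 to 0.69, and with each array centred on its median. Leaving out a siRRM1 array, which is not in this comparison, left the log2 value at 0.60. That fit is the same as limma on only the 4 arrays compared (adjusted p = 0.0560).

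A second APOBEC3G probe set, 215579_at, did not follow. It read 5.95 and 5.73 in siRRM1 cells, 5.82 and 5.92 in siRRM2 cells, and 5.62 and 6.01 in scramble cells, so all 3 groups overlapped. Its log2 difference was 0.02 in siRRM1 (95% interval -0.32 to 0.37) and 0.05 in siRRM2 (-0.29 to 0.39), and both intervals lie below the values of the first probe set. The annotation lists different database entries for the 2 probe sets, and which transcripts each one reads was not analysed here.

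APOBEC3F, a relative of APOBEC3G that also acts on retroviruses, was measured in part together with it. The probe set that names both genes, 214995_s_at, had log2 signals of 9.20 and 8.70 in siRRM1 cells, 8.78 and 8.57 in siRRM2 cells, and 7.77 and 7.99 in scramble cells. Both knockdowns lay above scramble on every array and overlapped each other. The difference was 1.07 in siRRM1 (SE 0.17, limma adjusted p = 0.0124) and 0.80 in siRRM2 (SE 0.17, adjusted p = 0.0771). The call in siRRM1 was lost without scramble replicate 1 (adjusted p = 0.0716, log2 0.96).

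The probe set for APOBEC3F alone, 214994_at, read 6.00 and 5.72 in siRRM1 cells, 5.61 and 5.67 in siRRM2 cells, and 5.48 and 5.06 in scramble cells. The 3 groups did not overlap, but the 2 scramble arrays were as far apart as the group means of siRRM2 and scramble. The log2 differences were 0.59 in siRRM1 (SE 0.16, limma adjusted p = 0.0540) and 0.38 in siRRM2 (SE 0.16, adjusted p = 0.262). With 1 probe set per gene, which tests 7936 genes, the first of these passed (adjusted p = 0.0417), and it also passed without scramble replicate 1 (adjusted p = 0.0471).

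APOBEC3C, a family member with a single deaminase domain, was above scramble in both knockdowns, and passed the threshold in siRRM1. Probe set 209584_x_at had log2 signals of 9.48 and 9.74 in siRRM1 cells, 9.54 and 9.43 in siRRM2 cells, and 8.62 and 8.89 in scramble cells. Every knockdown array was above both scramble arrays, and the knockdowns overlapped. The siRRM1 difference was 0.86 (SE 0.13, limma adjusted p = 0.0117), a call that needed scramble replicate 1 (adjusted p = 0.0611 when it was left out) and siRRM1 replicate 2 (0.0619). The siRRM2 difference of 0.73 (SE 0.13) fell just short of the threshold at an adjusted p of 0.0541, and passed with 1 probe set per gene (adjusted p = 0.0354). The suffix x in the probe set's name, also found in that of APOBEC3A, marks probes that can match several transcripts. Whether any member probe set, that of APOBEC3B included, also reads genes it does not name was not tested.

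APOBEC3B, a nuclear deaminase often raised in tumours, had log2 signals of 11.67 and 12.08 in siRRM1 cells, 11.43 and 11.53 in siRRM2 cells, and 11.04 and 11.16 in scramble cells (206632_s_at). The groups did not overlap, and the 2 siRRM1 arrays differed by more than the siRRM2 and scramble means. The difference was 0.78 in siRRM1 (SE 0.14, limma adjusted p = 0.0184) and 0.37 in siRRM2 (SE 0.14, adjusted p = 0.226). The siRRM1 call did not hold when scramble replicate 1 (adjusted p = 0.0950), scramble replicate 2 (0.0544) or siRRM1 replicate 2 (0.0623) was left out, the last with a log2 difference of 0.57.

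APOBEC3A, a strong deaminase known mainly from myeloid cells, gave a dim signal. Its only probe set, 210873_x_at, also names the hybrid gene APOBEC3A_B, and the 2 cannot be told apart here. It read 4.85 and 5.06 in siRRM1 cells, 4.67 and 4.86 in siRRM2 cells, and 4.62 and 4.69 in scramble cells. The siRRM1 arrays lay above the scramble arrays, while siRRM2 overlapped both. Without the filter its log2 differences were 0.30 in siRRM1 (SE 0.12, limma adjusted p = 0.178) and 0.11 in siRRM2 (SE 0.12, adjusted p = 0.763).

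**Figure D1:**
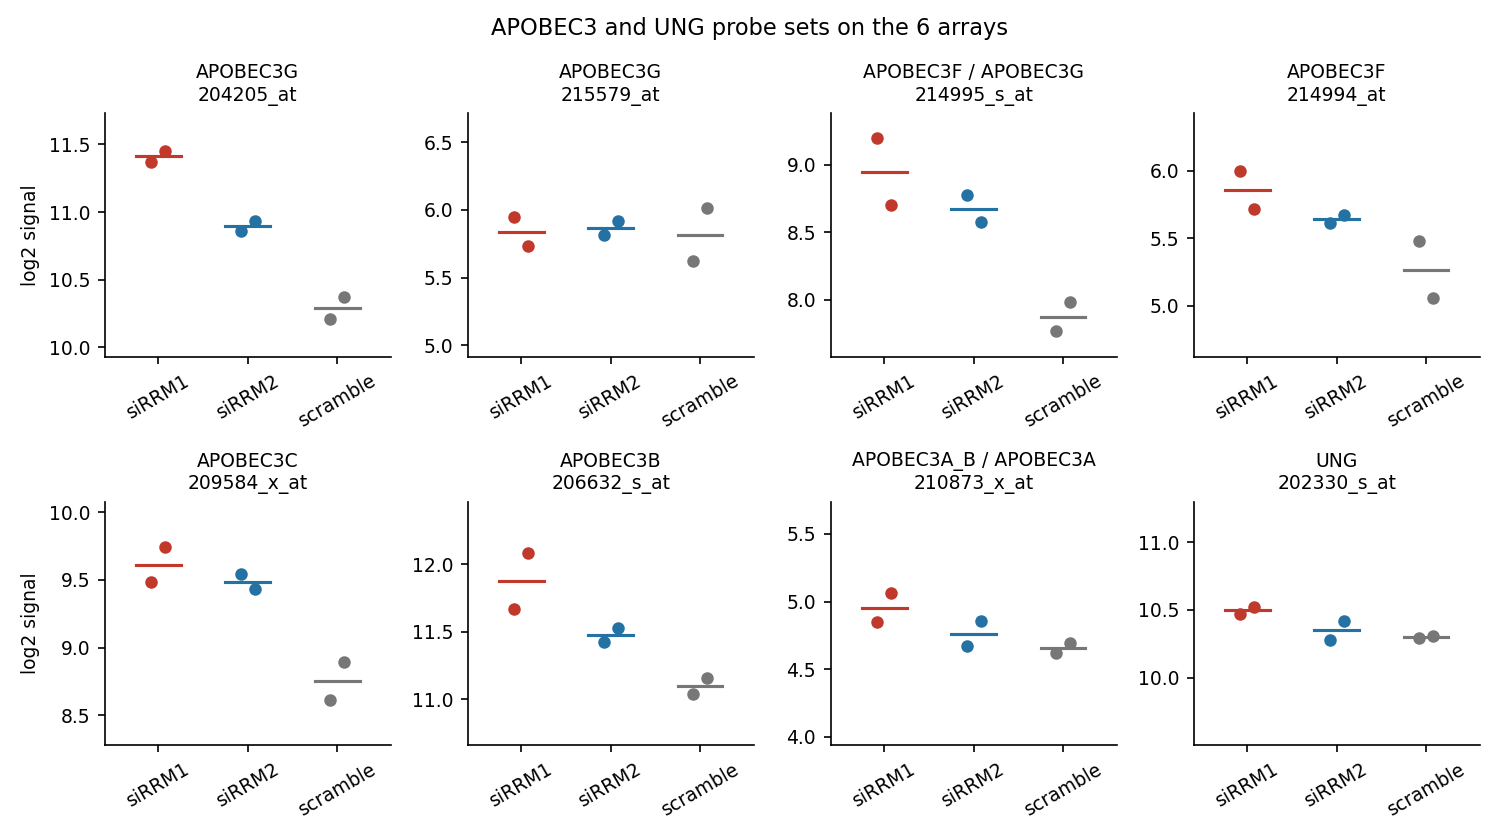
Log2 signal (vertical axis, each panel spanning the same range of 1.8 log2 units) of the 8 probe sets in siRRM1, siRRM2 and scramble cells. Points are the 2 arrays of a group and lines their mean. For APOBEC3G 204205_at the arrays run from 11.45 in siRRM1 to 10.21 in scramble without overlap, while for APOBEC3G 215579_at and UNG all arrays lie within 0.39 and 0.24 log2 units.

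UNG encodes a nuclear and a mitochondrial glycosylase that are made from different start sites, and the array read the gene through 1 probe set. RefSeq promoter windows were held for 1 of the 6 member genes, UNG, with 2 starts 575 bases apart on chromosome 12. The 100 bases before each start on the plus strand (RefSeq, GRCh38.p14) are shown because the array gives a single value for both. Capitals mark matches to GCGCCAA on either strand (TTGGCGC on the other), letters found in binding sites of the E2F family, which drives many S phase genes.
UNG upstream start, chr12:109097497-109097596: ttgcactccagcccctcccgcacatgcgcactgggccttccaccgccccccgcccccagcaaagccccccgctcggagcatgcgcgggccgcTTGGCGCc
UNG downstream start, chr12:109098072-109098171: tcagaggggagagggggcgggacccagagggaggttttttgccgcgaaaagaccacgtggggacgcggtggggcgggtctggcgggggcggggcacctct
The first window held 1 match and the second 0, and 400 of the 35116 RefSeq windows of this length (1.14%) held a match.

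UNG (202330_s_at) had log2 signals of 10.47 and 10.52 in siRRM1 cells, 10.28 and 10.42 in siRRM2 cells, and 10.29 and 10.31 in scramble cells. The siRRM1 arrays were above all others by a narrow margin, and siRRM2 overlapped scramble. The log2 difference was 0.20 in siRRM1 (SE 0.09, 95% interval -0.02 to 0.42, limma adjusted p = 0.206) and 0.05 in siRRM2 (SE 0.09, -0.17 to 0.27, adjusted p = 0.823). The upper bounds correspond to 1.34-fold in siRRM1 and 1.21-fold in siRRM2. UNG was called in none of the 15 alternative fits of either contrast.

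The median log2 difference over the 8 probe sets was 0.68 in siRRM1 and 0.38 in siRRM2, with the APOBEC3A probe set from the fit without the filter, beside -0.02 in siRRM1 and -0.01 in siRRM2 over all probe sets tested. Both comparisons use the same scramble arrays, so they are not independent of each other. Over the 6 members whose scramble mean also passed the filter, which leaves out APOBEC3F 214994_at, both siRRM1 arrays were above both scramble arrays for 5 (26% of all probe sets), and both siRRM2 arrays for 4 (25.8%). In these bulk samples a change in RNA per cell cannot be told apart from a change in the share of cells that make it.

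Between the knockdowns, 0 of the 7 members tested passed in limma, where 0.0376% of all probe sets were called in either direction. An unadjusted p under 0.05 was reached by 2 of the 7 and by 8.63% of all probe sets. APOBEC3G (204205_at) was higher in siRRM1 by 0.52 on the log2 scale (SE 0.10, 95% interval 0.28 to 0.75, adjusted p = 0.199), and APOBEC3B by 0.40 (SE 0.14, 0.06 to 0.74, adjusted p = 0.512). APOBEC3C differed by 0.13 (SE 0.13, -0.19 to 0.44, adjusted p = 0.854). Over the 6 members whose scramble mean also passed the filter, both siRRM1 arrays were above both siRRM2 arrays for 3 (17.3% of all probe sets). The order of siRRM1 over siRRM2 over scramble, with no overlap between arrays, was seen for APOBEC3G 204205_at and APOBEC3B among those 6 members, and for 6.73% of all probe sets. APOBEC3F 214994_at had the same order, but passed the filter through its knockdown arrays.

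**Figure D2:**
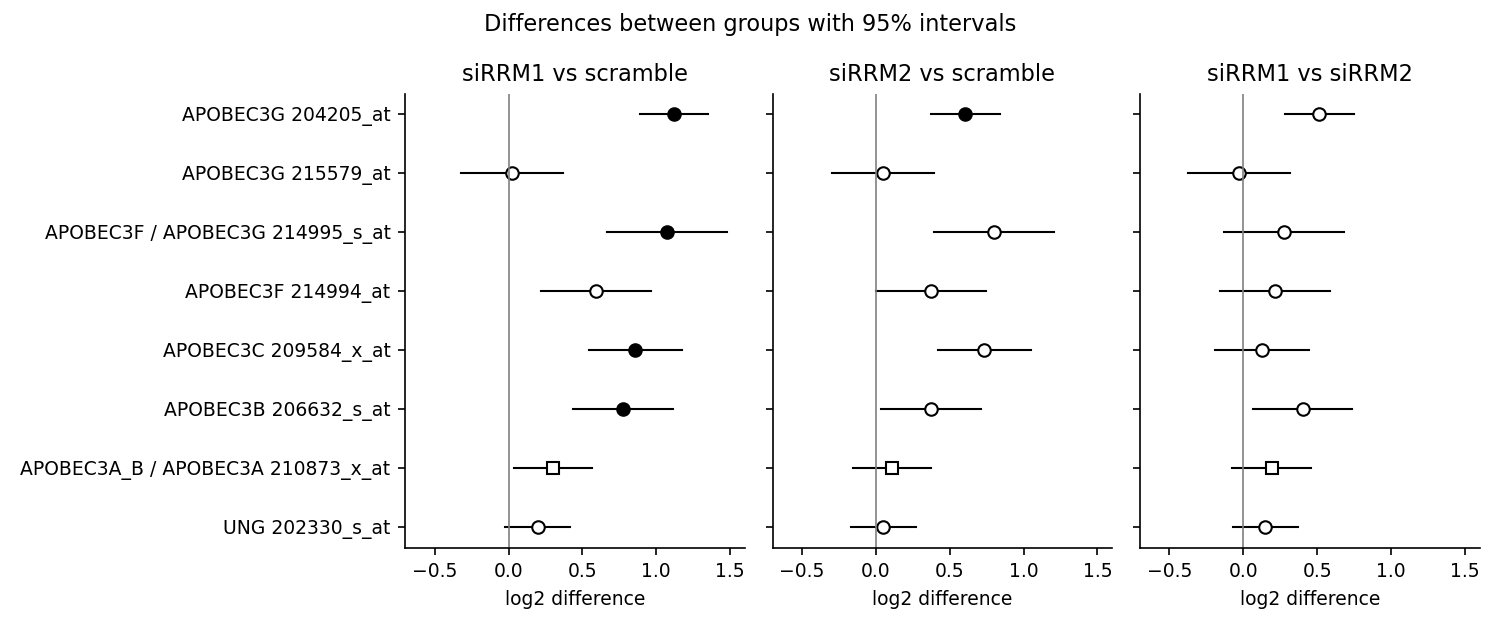
Log2 differences (horizontal axis) of the 8 probe sets in siRRM1 and siRRM2 against scramble and in siRRM1 against siRRM2, with 95% intervals of the limma fit. Filled circles were called, open circles were not, and open squares show the APOBEC3A probe set from the fit without the filter. In siRRM1 against scramble 4 intervals belong to called probe sets, the highest at 1.12.

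The APOBEC3 genes lie side by side on chromosome 22, so the probe sets were also set beside those of their neighbours. The 10 protein-coding genes on each side were taken in RefSeq order (GRCh38.p14), a choice made after the members' values were known, and 17 of them had a probe set of their own, all past the filter. In siRRM1, 5 of the 17 rose and 0 fell, where 7.11% of genes were called higher. These were SYNGR1, a synaptic vesicle protein (log2 0.70, adjusted p = 0.0381), the Polycomb proteins CBX7 (0.64, 0.0179) and CBX6 (0.40, 0.0463), the growth factor PDGFB (0.56, 0.0271) and the deubiquitinase JOSD1 (0.46, 0.0220). Their number was 0 without scramble replicate 1 or siRRM1 replicate 2, and 2 without any other single array. In siRRM2, 0 of the 17 passed in limma and 2 had an unadjusted p under 0.05, where 19.1% of genes did. The median over the 17 was 0.07 in siRRM1 and 0.09 in siRRM2, beside the highest siRRM1 values of 0.70 for SYNGR1 and 0.64 for CBX7. Of the APOBEC3 probe sets APOBEC3B (0.78), APOBEC3C (0.86) and APOBEC3G 204205_at (1.12) had higher values than these neighbours. APOBEC3F 214994_at (0.59) and APOBEC3G 215579_at (0.02) had lower ones. The gap between APOBEC3B (SE 0.14) and SYNGR1 (SE 0.17) was smaller than either SE. That between APOBEC3C (SE 0.13) and SYNGR1 was smaller than the SE of SYNGR1, so neither order is settled. Without siRRM1 replicate 2 APOBEC3B read 0.57 and APOBEC3C 0.73.

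**Figure D3:**
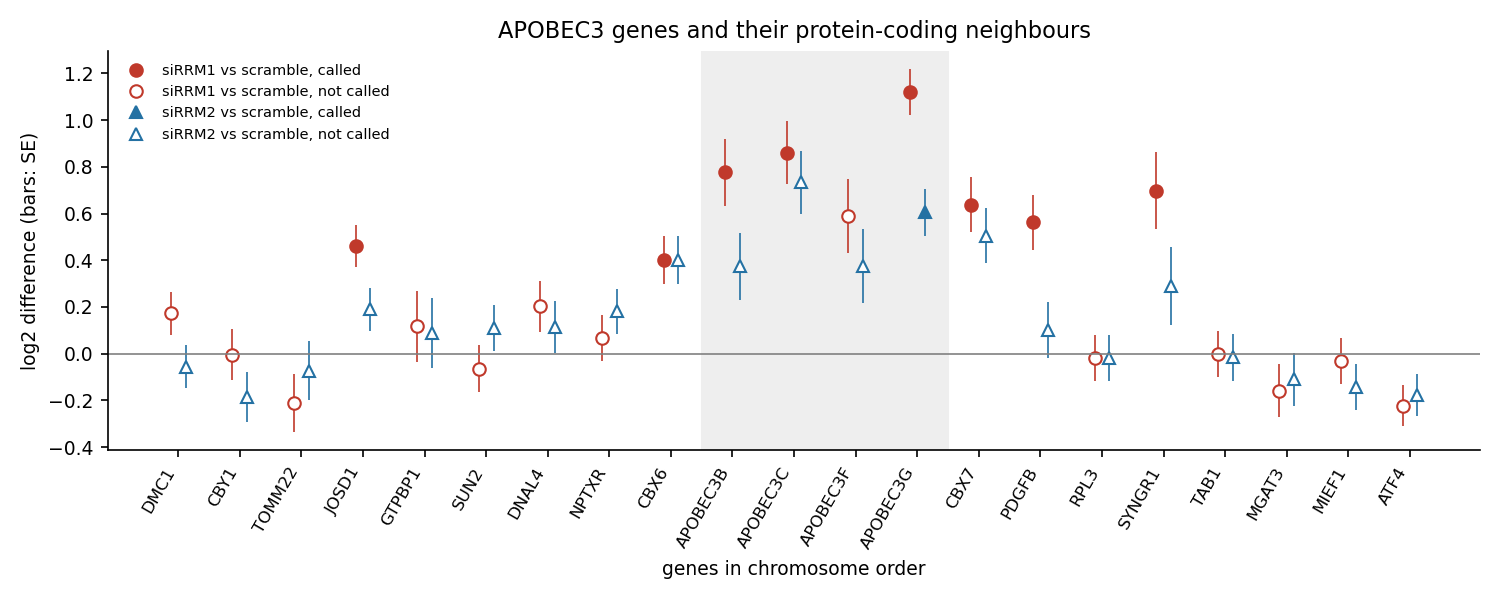
Log2 differences (vertical axis, bars are SE) in siRRM1 and siRRM2 against scramble for the APOBEC3 genes (shaded) and their neighbours with a probe set, in chromosome order on an axis without scale. In siRRM1, APOBEC3B, APOBEC3C and APOBEC3G 204205_at (0.78, 0.86 and 1.12) lie above all 17 neighbours, of which 5 were called. The gap between APOBEC3B and SYNGR1 (0.70) is smaller than either SE, and that between APOBEC3C and SYNGR1 smaller than the SE of SYNGR1. APOBEC3F (0.59) lies below SYNGR1 and CBX7 (0.64).

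By the root mean square difference of centred log2 signals over the 6 arrays, the genes closest to APOBEC3G (204205_at) among 7935 others were LHX2, a LIM homeobox factor (0.04), and RAP2B, a small GTPase (0.06). GAMT, an enzyme of creatine synthesis, XPC, which recognises DNA damage in nucleotide excision repair, and GADD45A, a growth arrest and DNA damage gene, followed at 0.08 each. Their log2 differences were 1.01 to 1.23 in siRRM1 and 0.50 to 0.67 in siRRM2.

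The other glycosylases stayed below the threshold. Of 8 tested, among them SMUG1 and TDG, which also remove uracil, 0 passed in limma in either knockdown, and 4 in siRRM1 and 2 in siRRM2 had an unadjusted p under 0.05, which 30.8% of genes in siRRM1 and 19.1% in siRRM2 also had. NEIL3 (log2 0.35, adjusted p = 0.110) and MPG (0.23, 0.138) had the smallest p in siRRM1, and OGG1 (0.28, 0.232) and NEIL3 (0.31, 0.252) in siRRM2. In the later steps of base excision repair 2 of 13 genes rose and 1 fell in siRRM1, where 7.11% of genes were called higher and 5.66% lower. The sliding clamp PCNA rose by 0.72 (adjusted p = 0.00603) and the ligase LIG1 by 0.61 (0.0225), while LIG3, the ligase that works with XRCC1, had a log2 change of -0.50 (0.0166). APEX1 (-0.20) and POLB (-0.17) were not called. In siRRM2, where 1.22% of genes were called higher and 0.239% lower, 0 of the 13 passed in limma and 4 had an unadjusted p under 0.05, against 19.1% of genes. PCNA (0.34, adjusted p = 0.123) and LIG3 (-0.26, 0.184) had the smallest p there.

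Some genes that keep dUTP low and dTTP supplied also rose in siRRM1. Of 8 genes of deoxynucleotide supply tested, 3 rose and 0 fell, where 7.11% of genes were called higher and 5.66% lower. These were thymidine kinase TK1 at 0.63 (limma adjusted p = 0.0159), thymidylate synthase TYMS at 0.41 (0.0328) and the dUTPase DUT at 0.37 (0.0428). In siRRM2 they read 0.39, 0.28 and 0.18, and 0 of the 8 passed in limma, with 2 at an unadjusted p under 0.05 (19.1% of genes). The exonuclease EXO1 was the 1 of 4 mismatch repair genes that rose in siRRM1 (0.48, adjusted p = 0.0295), and POLH the 1 of 5 translesion synthesis genes (0.47, adjusted p = 0.0412), beside the same 7.11% of genes. In siRRM2, 0 of these 9 repair and synthesis genes passed in limma and 1, MSH3, had an unadjusted p under 0.05 (log2 -0.28, adjusted p = 0.243), against 19.1% of genes. EXO1 (0.18), REV1 (-0.20) and POLH (0.14) followed with the smallest p of their lists. Medians were 0.24 for the glycosylases, 0.10 for the later repair steps and 0.20 for deoxynucleotide supply in siRRM1, beside -0.01 over all genes tested. Without scramble replicate 1 or siRRM1 replicate 2, 1 of the 13 repair genes and 0 of the 8 supply genes rose, and LIG3, EXO1 and POLH were not called. Without scramble replicate 2, 1 repair gene and 1 supply gene rose, and these 3 were not called. Without siRRM2 replicate 1 or siRRM2 replicate 2, 1 supply gene rose, and POLH was not called without any 1 of the 6 arrays.

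**Figure D4:**
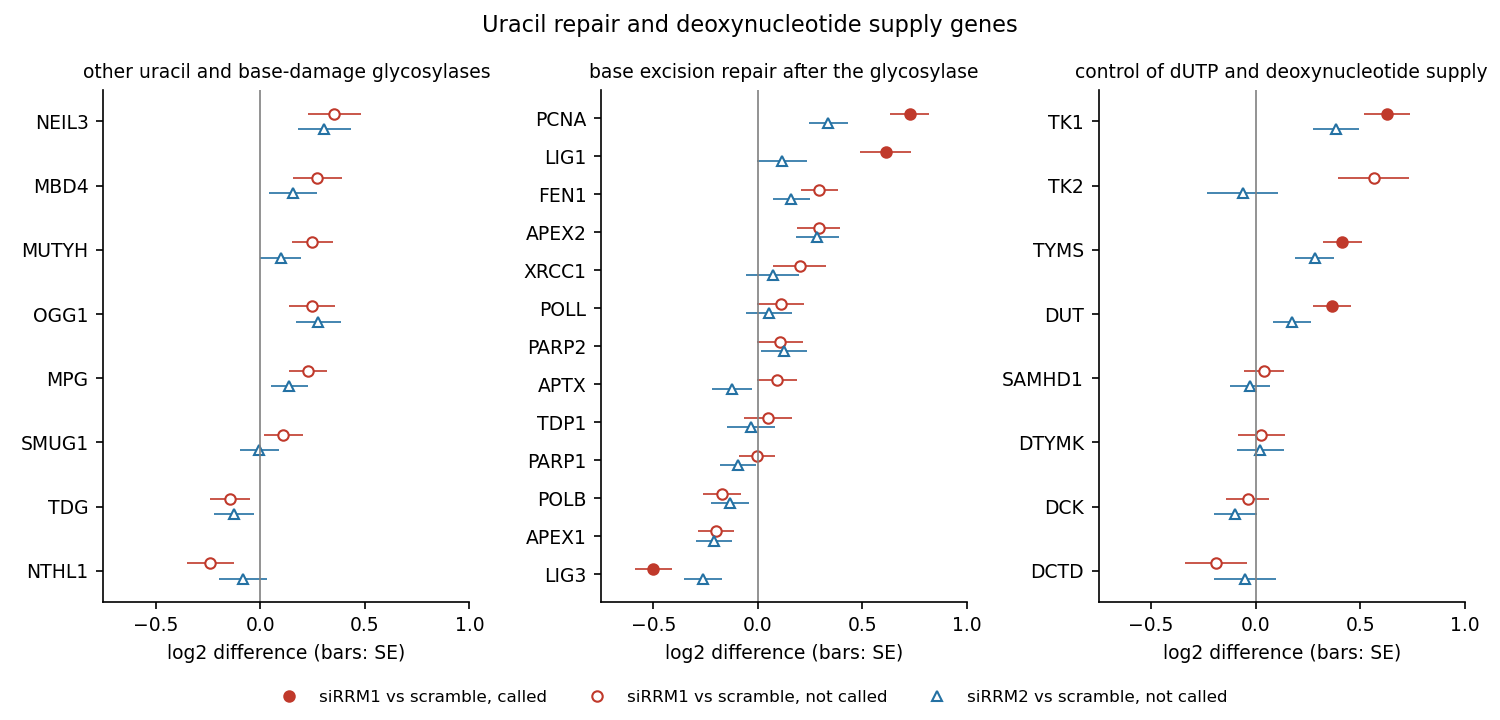
Log2 differences (horizontal axis, bars are SE) against scramble of the tested glycosylases, later base excision repair genes and deoxynucleotide supply genes. Circles stand for siRRM1 and triangles for siRRM2, filled where called. PCNA at 0.72 and LIG3 at -0.50 are the ends of the range in siRRM1, and no triangle is filled.

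Transcription factors linked to APOBEC3 genes were examined beside them. Of 11 tested, 3 rose and 0 fell in siRRM1, where 7.11% of genes were called higher and 5.66% lower. These were the NF-kappaB subunits RELB (log2 0.74, limma adjusted p = 0.0117) and NFKB2 (0.63, 0.0181) and STAT3, which transmits cytokine signals (0.47, 0.0296). In siRRM2, 0 passed in limma and 5 had an unadjusted p under 0.05, where 19.1% of genes did, RELB at 0.65 (adjusted p = 0.0530, and 0.0340 with 1 probe set per gene) and IRF9 at 0.72 (0.0691) among them. Without scramble replicate 1 or scramble replicate 2 there was 1 factor that rose in siRRM1, and without siRRM1 replicate 2 there was 0. Of 10 readouts of interferon, NF-kappaB and p53 signalling, chosen with earlier results of these data known, 7 rose in siRRM1 and 6 in siRRM2, and 0 fell. Over all genes tested 7.11% were called higher in siRRM1 and 1.22% in siRRM2. The median over the 10 readouts was 1.02 in siRRM1 and 0.78 in siRRM2. IFIT1, IFI6, MX1, NFKBIA and BIRC3, also on the list, were not called in either knockdown, and not all of them were tested. Among interferon-induced genes, the modifier ISG15 rose by 0.81 in siRRM1 (adjusted p = 0.00804) and 0.69 in siRRM2 (0.0428), and the oligoadenylate synthetase OAS1 by 0.79 (0.00775) and 0.67 (0.0428). Among NF-kappaB targets, the feedback inhibitor TNFAIP3 rose by 1.54 in siRRM1 and 0.86 in siRRM2, and the chemokine CCL4 by 2.70 and 1.61. Among p53 targets, the cell cycle inhibitor CDKN1A rose by 2.83 in siRRM1 and 2.09 in siRRM2, and the stress cytokine GDF15 by 4.40 and 1.35. GDF15 was also higher in siRRM1 than in siRRM2 (log2 3.06, adjusted p = 0.00399). The p53 inhibitor MDM2 rose by 1.23 in siRRM1 and read 0.88 in siRRM2 (adjusted p = 0.0981). Leaving out scramble replicate 1, scramble replicate 2 or else siRRM2 replicate 1 brought the siRRM2 count to 1, without siRRM2 replicate 2 it was 0, and without either siRRM1 array it was 4.

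APOBEC3G is also abundant in T and NK cells and APOBEC3A in myeloid cells, and some transcripts of such cells moved with the knockdowns. Over all genes tested 7.11% were called higher in siRRM1 and 1.22% in siRRM2. All 4 cytotoxic cell markers tested rose in siRRM1, namely the granule proteins GZMB (log2 4.50), GNLY (2.44) and PRF1 (1.04) and NKG7 (1.36). In siRRM2 GZMB (3.10) and GNLY (1.68) rose. The cytotoxic list had summed linear signals of the 6 genes measured of 1185 and 2537 in siRRM1, 645 and 1135 in siRRM2, and 230 and 255 in scramble. All 3 myeloid markers tested, S100A8 (4.23), S100A9 (2.55) and CSF1R (1.503), rose in siRRM1. In siRRM2, 0 of them passed in limma and 2 had an unadjusted p under 0.05, where 19.1% of genes did. The 6 myeloid genes measured summed to 652 and 1499 in siRRM1, 329 and 693 in siRRM2, and 194 and 205 in scramble. The filter used the mean over all 6 arrays, so a marker dim in scramble could pass it through its knockdown arrays. The share of tested markers that rose is therefore no test of these lists. Of 3 T cell markers tested TRBC1 rose in siRRM1 (1.09). In siRRM2, 0 of the 3 passed in limma and 3 had an unadjusted p under 0.05, where 19.1% of genes did. The 6 T cell genes measured summed to 4560 and 4602 in siRRM1, 4027 and 3963 in siRRM2, and 2972 and 2785 in scramble. A linear sum follows its brightest genes, so it does not show that the list rose as a whole. Of the cytotoxic markers 2 rose in siRRM1 without scramble replicate 1, 3 without scramble replicate 2 and 2 without siRRM1 replicate 2, with 1 myeloid marker in each case, and the siRRM2 count of cytotoxic markers was 0 without any 1 scramble or siRRM2 array. Of the epithelial and stromal markers 1 of 3 tested, the actin ACTA2, rose in both knockdowns, and in siRRM2 it was not called without scramble replicate 2 or siRRM2 replicate 2. The other measured markers of these lists were below the filter. In siRRM1 the T cell markers CD2, CD3D and CD3G differed by -0.08 to 0.03, the myeloid markers CD14, ITGAM and LYZ by -0.0021 to 0.16, and the cytotoxic markers KLRD1 and GZMA by 0.03 and 0.44. The part of these transcripts in the APOBEC3 values was not tested.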

How the data were processed

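The authors deposited log2 signals for 22277 probe sets on 6 arrays. RNA was labelled with biotin and hybridised after the Affymetrix protocol, per the labels' protocols; these sources name no summary or normalization method. That the scale is log2 was read from the values, which end at about 14.4. The array medians lay close together, between 6.11 and 6.16, so no scaling was added. Whether the arrays had been scaled before deposit is not stated. Scanner files were not used here, and the number of arrays limits the precision.

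Gene names came from the platform annotation, which gave 1 symbol for 19070 probe sets, several for 1043 and none for 2164. Gene identifiers of 19058 matched RefSeq (GRCh38.p14), which changed 0 symbols. After 62 control probe sets were left out, those with a mean at or above the 40th percentile (5.44) were fitted in R 4.3.3 by lmFit and eBayes of limma 3.58.1 (3 groups, 3 residual and 4.29 prior degrees of freedom), with two-sided p-values adjusted by Benjamini-Hochberg over 13308 probe sets. The procedure was also run on simulated data with independent noise on each array. That run cannot show how it handles noise that arrays share. In gene lists each gene was read through its probe set with the highest mean and a single symbol.

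The members, the lists and the naming rule were chosen with earlier results of these data known. The rule names all member probe sets, RRM1 and RRM2, the called genes of each list or up to 2 with the smallest p, and the 5 genes most like the single-gene member probe set with the widest range. Of the AID/APOBEC list, APOBEC1 alone had a probe set here and it was below the filter; 5 listed genes were not analysed here. Alternatives changed the filter, the probe sets per gene, the scaling, the variance model, the arrays fitted and the replicate block.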

Additional observations from a re-analysis of the deposited data

How the results depend on the processing

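With 2 arrays in a group, calls depended on single arrays. Leaving out 1 array gave 386 to 2003 probe sets called in siRRM1 against scramble (1619 with all 6), 6 to 135 in siRRM2 against scramble (176) and 2 to 5 between the knockdowns (5), and the member probe sets called numbered 2 to 4, 0 to 0 and 0 to 0. Fitting only the 4 arrays compared gave 923 probe sets in siRRM1 and 0 members in siRRM2. Leaving out an array of the group not compared gave the same counts as that fit, because the array left in its group adds nothing to the spread. Centring each array on its median also gave 0 members in siRRM2. A trend in eBayes gave 347 probe sets and 3 members in siRRM2 and 16 probe sets between the knockdowns. With 1 probe set per gene there were 2 members in siRRM2 and 13 genes between the knockdowns.

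Same-numbered arrays shared only a number in the labels. Their deviations from the group means correlated at 0.21 to 0.36 across probe sets, which are not independent replicates, and each comparison had only 2 numbers. With the replicate block the fits called 2746 probe sets in siRRM1, 712 in siRRM2 and 101 between the knockdowns, with 5, 3 and 0 members. The members it added were APOBEC3F 214994_at in siRRM1 (adjusted p = 0.0158), and APOBEC3C (0.0155) and 214995_s_at (0.0287) in siRRM2.

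Directions turned for values near 0. With 1 array left out, APOBEC3G 215579_at ranged from -0.17 to 0.22 in siRRM1, from -0.14 to 0.24 in siRRM2 and from -0.14 to 0.08 (0.0801) between the knockdowns. It was -0.0232 in siRRM1 with median centring and -0.0363 with quantile normalization. UNG in siRRM2 ranged from -0.0186 to 0.12, and APOBEC3C between the knockdowns from -0.0058 to 0.26. The cause of these changes was not tested. No other direction of a member turned in the alternatives run, and the APOBEC3A probe set had values only with a lower filter or none.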
